A study of Mus musculus with 36 samples.

Results

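The mature microRNAs (miRNAs) mmu-miR-192-5p, mmu-miR-194-5p and mmu-miR-215-5p were examined in small RNA sequencing libraries of mouse prostate. They were taken by name from the deposited expression tables, and are 3 of the 1963 miRNAs listed there. The study asked how loss or a variant of ELAC2, the enzyme that trims the 3′ end of precursor tRNAs, changes the prostate with and without a driver of prostate cancer. RNA came from the ventral and lateral lobes of male, littermate-matched mice aged 10 or 30 weeks. The 36 libraries fall into 12 groups of 3. The WT groups were ELAC2+/+, the KO groups were ELAC2-/- and the A537T groups were ELAC2A537T, each with and without the TRAMP transgene (TRAMP +/-) and each at both ages.

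In the KO line Cre recombinase was driven by the probasin promoter, so the deletion was confined to the prostate, where that promoter is active in epithelial cells. The A537T mice were homozygous for the variant in all tissues. TRAMP mice were heterozygous for SV40 large and small T antigens, also driven by the probasin promoter. Libraries 1 to 18 were all TRAMP and libraries 19 to 36 all without it, so the order of the library numbers and the TRAMP background cannot be told apart. Per the study's figure legends, the libraries of a group stand for separate mice. The libraries held between 4544257 and 21870210 reads assigned to miRNAs, apart from library 35, an A537T library of 10 weeks, which held 655455. Each deposited value was scaled to the total of its library and is given as reads per 1000000 (CPM).

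A miRNA is cut from a hairpin precursor, and bases 2 to 8 of the mature strand, the seed, do most of the pairing with target mRNAs. miR-192, miR-194 and miR-215 are known as abundant miRNAs of intestine, liver and kidney, and as miRNAs whose precursors are transcribed in response to the tumour suppressor p53. The SV40 large T antigen made in TRAMP mice binds p53.

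The sequences below show how alike the 3 miRNAs are. They are RefSeq mature sequences on GRCm38.p6, written 5′ to 3′ with the seed in capitals.
miR-192-5p: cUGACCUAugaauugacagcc
miR-215-5p: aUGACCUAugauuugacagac
miR-194-5p: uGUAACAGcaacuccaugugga

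miR-192-5p and miR-215-5p shared 18 of 21 bases and the whole seed. Counted from 1 at the 5′ end, the substitutions from miR-192-5p to miR-215-5p were C1A, A12U and C20A. Among the 1679 mouse mature sequences of the RefSeq table, no other miRNA had the seed UGACCUA, and miR-194-5p was the only one with the seed GUAACAG. A read of either miRNA of the first seed can be told from the other only at the 3 positions that differ.

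The 3 miRNAs come from 4 hairpins in 2 clusters. On chromosome 19, plus strand, miR-194-5p lies at chr19:6264658-6264679 in Mir194-2 and miR-192-5p at chr19:6264857-6264877 in Mir192, with 115 bases between the hairpins. This pair lies between genes, 2307 and 2508 bases from Atg2a on one side, and 4066 and 3862 bases from Gm14963 on the other. On chromosome 1, plus strand, miR-194-5p lies at chr1:185313325-185313346 in Mir194-1 and miR-215-5p at chr1:185313610-185313630 in Mir215, with 195 bases between the hairpins. Mir194-1 is in an intron and Mir215 in an exon of the antisense gene 2010103J01Rik, and both lie opposite an intron of Iars2, the gene of a mitochondrial isoleucyl-tRNA synthetase. The hairpins of miR-194-5p are shown because its reads cannot be assigned to either locus, so the tables hold 1 summed value for it. The miR-194-5p arm is in capitals.
Mir194-1: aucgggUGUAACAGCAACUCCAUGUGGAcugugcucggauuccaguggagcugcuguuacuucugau
Mir194-2: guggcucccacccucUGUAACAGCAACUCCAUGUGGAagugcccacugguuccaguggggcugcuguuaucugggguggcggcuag

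The 3p arms of these hairpins do differ, and their sequences are given with seeds in capitals because they are the only reads that separate the 2 loci of miR-194.
miR-194-1-3p: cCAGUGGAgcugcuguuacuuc
miR-194-2-3p: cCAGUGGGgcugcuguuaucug

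The substitutions from miR-194-2-3p to miR-194-1-3p were G8A, U19C, C20U and G22C. miR-194-2-3p, from the chromosome 19 cluster, had 799 reads in 35 of 36 libraries, and miR-194-1-3p, from the chromosome 1 cluster, had 3 reads in 2 libraries. That is 266 reads of the chromosome 19 arm for each read of the chromosome 1 arm. The 5p arms particular to each cluster were unequal too, with 170868 reads of miR-192-5p and 689 of miR-215-5p, or 248 to 1. miR-194-5p had 85060 reads, so there were 2.01 reads of miR-192-5p for each of miR-194-5p and 123 of miR-194-5p for each of miR-215-5p. The other passenger arms were rare. miR-192-3p had 156 reads in 31 libraries, with 1095 reads of its 5p arm for each, and miR-215-3p had 9 reads in 6 libraries, with 76.6 reads of its 5p arm for each.

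miR-192-5p stood at 359 ± 38.2 CPM (SD, n = 36), and miR-194-5p at 179 ± 35.6 CPM (SD, n = 36). miR-215-5p stood at 1.37 ± 0.733 CPM (SD, n = 36) and was counted with 1 to 53 reads a library. By mean level they ranked 96, 130 and 489 among the miRNAs listed. miR-215-5p made up 0.402% of all reads carrying the UGACCUA seed, and between 0.0689% and 1.09% in single libraries. The liver miRNA miR-122-5p stood at 5.02 CPM on average, between 0.818 and 45.2 CPM, below miR-192-5p in every library.

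**Figure D1:**
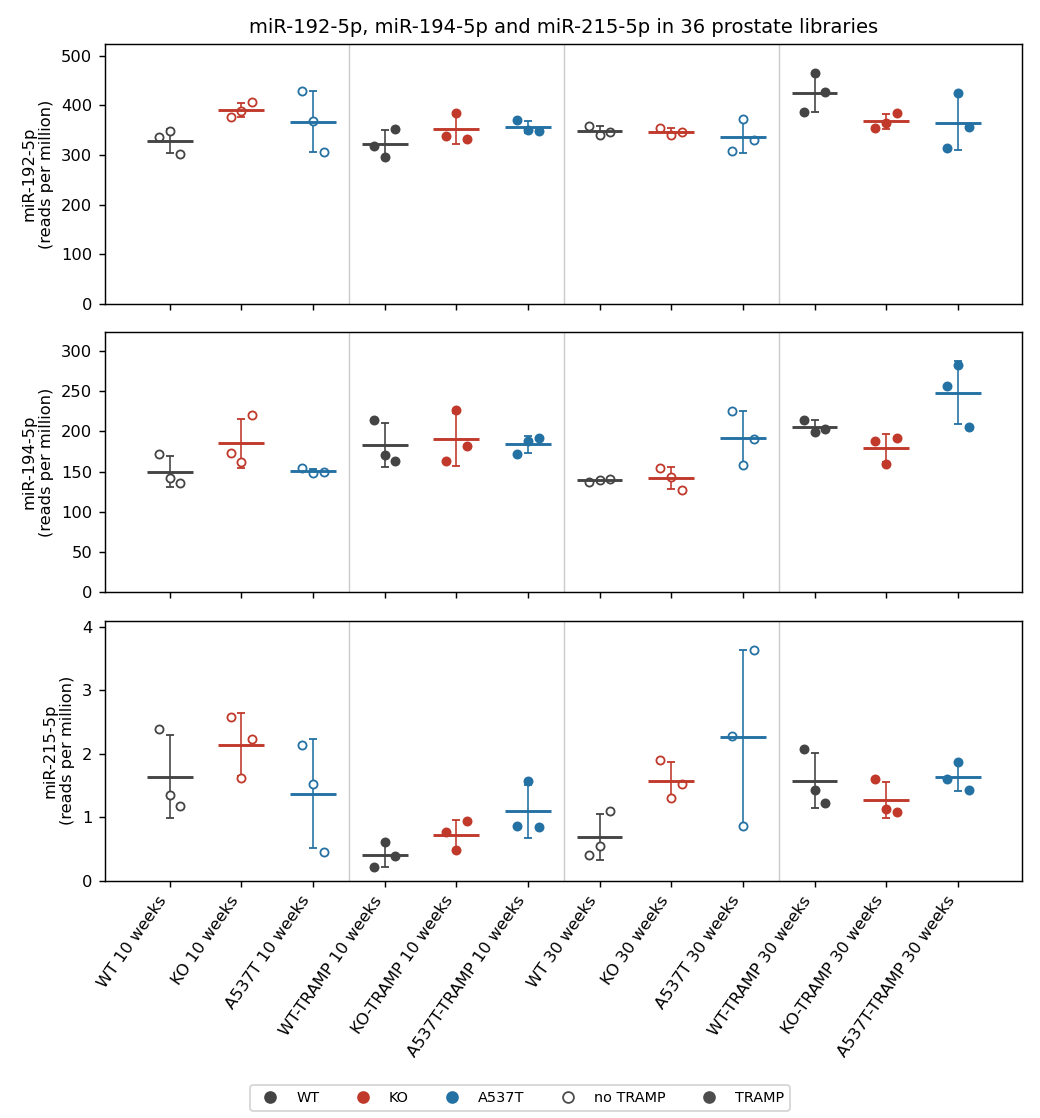
Level of miR-192-5p, miR-194-5p and miR-215-5p in CPM (vertical axes) in the 12 groups, with a point for each library and a bar for the mean and SD of 3. miR-192-5p lies between 296 and 465 CPM in all libraries, whereas miR-215-5p lies between 0.220 and 3.63 CPM, lowest in the WT-TRAMP group of 10 weeks.

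miR-192-5p was the least variable miRNA of the 514 that averaged at least 1 CPM. Its coefficient of variation over the 36 libraries was 10.6%, against a median of 48.6%, and its highest library was 1.57 times its lowest. Next were let-7g-5p at 12.3% and miR-27a-3p at 14.8%, named here after their values were seen. With TMM scaling (edgeR's trimmed mean of M-values) miR-192-5p was the second least variable at 12.9%, and with library totals that left out skeletal muscle miRNAs it was again second, at 12.0%. miR-194-5p varied by 19.9%, the 18th lowest of 514, and its highest library was 2.22 times its lowest. miR-215-5p varied by 53.7%, the 296th lowest, with 16.5 times between its highest and lowest library. With 1 to 53 reads a library, counting error limits the precision of each of its values.

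**Figure D2:**
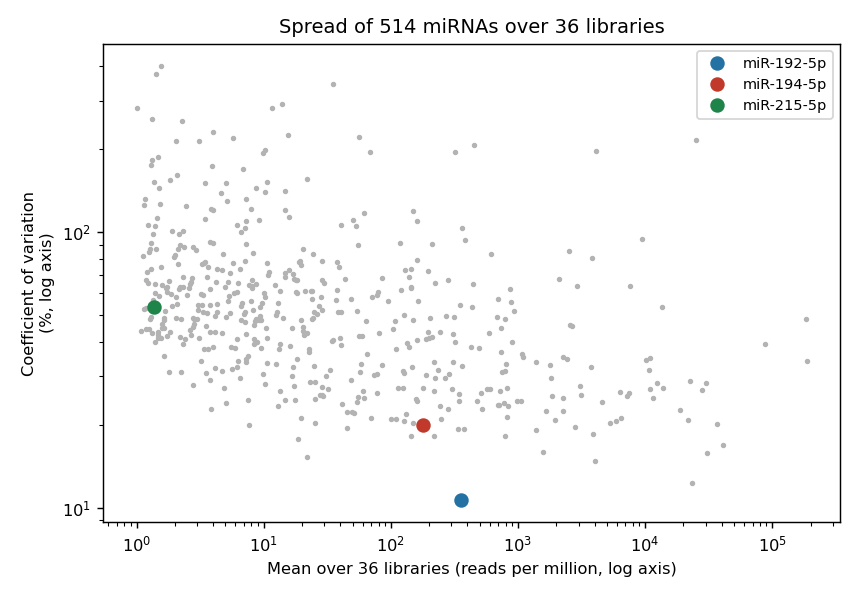
Coefficient of variation over the 36 libraries in percent against mean level in CPM (log axis) for the 514 miRNAs tested, with the 3 miRNAs marked. miR-192-5p is the lowest point at 10.6%, miR-194-5p lies at 19.9% and miR-215-5p at 53.7%, near the median of 48.6%.

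In order of group means, miR-192-5p ran from 323 ± 28.4 CPM in WT-TRAMP at 10 weeks to 426 ± 39.7 CPM in WT-TRAMP at 30 weeks (SD, n = 3 each), 1.32-fold in all. The libraries of every neighbouring pair in that order overlapped. Between these ends came WT at 10 weeks (329 ± 23.6 CPM), A537T at 30 weeks (337 ± 33.1), KO at 30 weeks (347 ± 7.22), WT at 30 weeks (349 ± 9.44) and KO-TRAMP at 10 weeks (352 ± 28.7). A537T-TRAMP stood at 357 ± 12.4 CPM at 10 weeks and 365 ± 55.9 CPM at 30 weeks, A537T at 10 weeks at 367 ± 61.4, KO-TRAMP at 30 weeks at 368 ± 15.7 and KO at 10 weeks at 391 ± 14.7 (SD, n = 3 each). The highest and lowest groups were thus the same line and background at different ages.

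miR-194-5p ran from 139 ± 1.69 CPM in WT at 30 weeks to 248 ± 39.0 CPM in A537T-TRAMP at 30 weeks (SD, n = 3 each), 1.78-fold. The 4 lowest groups were all without TRAMP: WT at 30 weeks, KO at 30 weeks (142 ± 13.5 CPM), WT at 10 weeks (150 ± 19.2) and A537T at 10 weeks (150.5 ± 3.11). Next was KO-TRAMP at 30 weeks at 180 ± 17.4 CPM, and this was the only neighbouring pair of 11 whose libraries did not overlap. From there came WT-TRAMP at 10 weeks (183 ± 27.2 CPM), A537T-TRAMP at 10 weeks (184 ± 10.8), KO at 10 weeks (185 ± 30.6), KO-TRAMP at 10 weeks (190.3 ± 32.8), A537T at 30 weeks (191.6 ± 33.8) and WT-TRAMP at 30 weeks (205 ± 8.26).

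miR-215-5p ran from 0.403 ± 0.195 CPM in WT-TRAMP at 10 weeks to 2.26 ± 1.38 CPM in A537T at 30 weeks (SD, n = 3 each), 5.61-fold, and every neighbouring pair overlapped. The 4 lowest groups were WT-TRAMP at 10 weeks, WT at 30 weeks (0.687 ± 0.364 CPM), KO-TRAMP at 10 weeks (0.726 ± 0.234) and A537T-TRAMP at 10 weeks (1.10 ± 0.416). Above them came KO-TRAMP at 30 weeks (1.27 ± 0.282 CPM), A537T at 10 weeks (1.37 ± 0.859), KO at 30 weeks (1.58 ± 0.298), WT-TRAMP at 30 weeks (1.58 ± 0.440), A537T-TRAMP at 30 weeks (1.63 ± 0.221), WT at 10 weeks (1.64 ± 0.653) and KO at 10 weeks (2.14 ± 0.493).

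By limma, miR-194-5p and miR-215-5p were called with TRAMP in different groups, and no difference of miR-192-5p passed the test. Whether these miRNAs differed in where they changed was not tested. By edgeR and DESeq2, miR-215-5p was called beside miR-194-5p in WT at 30 weeks. Of 18 tests (3 miRNAs, 3 lines, 2 ages) 3 passed an adjusted p of 0.05 by limma, each adjusted over the 514 miRNAs. miR-194-5p was higher with TRAMP in WT at 30 weeks, and miR-215-5p was lower with TRAMP in WT and in KO at 10 weeks. Many other miRNAs moved with TRAMP as well. At 10 weeks 34% of the miRNAs tested passed in WT, 42.8% in KO and 35% in A537T, and at 30 weeks 30.2% in WT, 35.8% in KO and 10.9% in A537T. The 3 calls in 18 tests were thus no more frequent than calls among all miRNAs tested. The calls in WT at 10 weeks split into 102 higher and 73 lower, and with TMM scaling into 85 and 105, while in KO they split into 74 and 146, and with TMM scaling into 105 and 122. The median log2 fold change over all miRNAs tested was -0.05 in WT and -0.40 in KO at 10 weeks, and -0.11 in WT and 0.34 in KO at 30 weeks. With TMM scaling the last of these was 0.09. Fold changes are on the log2(CPM + 1) scale, which understates changes of a miRNA as low as miR-215-5p.

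At 30 weeks miR-194-5p stood at 138, 140 and 141 CPM in WT and at 199, 202 and 214.7 CPM in WT-TRAMP. The WT libraries lay within a few CPM of each other and all TRAMP libraries were above them, as happened in one direction or the other for 46.5% of the miRNAs tested in this comparison. The group means differed 1.47-fold, a log2 fold change of 0.56 ± 0.16 (SE, 95% interval 0.22 to 0.89, limma adjusted p = 0.0116). The call held in all 16 alternatives that were run, with adjusted p between 0.0020 and 0.0476.

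In KO-TRAMP at 30 weeks miR-194-5p stood at 160, 188 and 191 CPM, against 127, 144 and 154 CPM in KO (log2 fold change 0.34, limma adjusted p = 0.0983). These libraries did not overlap, nor did those of 41.6% of the miRNAs tested, and the difference was that of the median miRNA (0.34). With TMM scaling it was 0.03, and it was 0.03 with edgeR and with DESeq2 as well. In A537T-TRAMP at 30 weeks it stood at 206, 257 and 282 CPM against 158, 191 and 226 CPM in A537T, which overlapped (0.37, limma adjusted p = 0.15). At 10 weeks its log2 fold changes were 0.28 in WT, 0.04 in KO and 0.29 in A537T, none past the threshold by limma (DESeq2 called that in KO, adjusted p = 0.0449). With totals without skeletal muscle miRNAs, that in WT at 10 weeks turned to -0.04. In A537T at 10 weeks, where A537T-TRAMP libraries (172, 188 and 192.2 CPM) lay above all A537T libraries (148, 149.5 and 154 CPM), the call was reached by DESeq2, edgeR and TMM scaling, with a lowest adjusted p of 0.0109 among the alternatives. In that comparison 49.03% of the miRNAs tested did not overlap, in one direction or the other.

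At 10 weeks miR-215-5p stood at 0.220, 0.381 and 0.608 CPM in WT-TRAMP, from 1, 4 and 5 reads, and at 1.17, 1.36 and 2.38 CPM in WT, from 20, 21 and 42 reads. Every WT-TRAMP library was below every WT library, in a comparison where 42.2% of the miRNAs tested did not overlap. Pooled over a group, 10 of 23260413 reads gave 0.430 CPM (exact Poisson 95% interval 0.206 to 0.791), against 83 of 50212345 reads and 1.65 CPM (1.32 to 2.05) in WT. These intervals cover counting error only, as reads are not independent molecules. The log2 fold change was -0.89 ± 0.28 (SE, limma adjusted p = 0.0143), and the mean with TRAMP was 0.246 of that without. With a pseudocount of 0.1 CPM the log2 fold change was -1.80, and with edgeR -2.06. It held in 13 of 15 alternatives, and was lost without library 1 (adjusted p = 0.0634) and without library 28 (adjusted p = 0.0928).

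In KO the picture at 10 weeks was alike in direction. miR-215-5p stood at 0.476, 0.765 and 0.938 CPM in KO-TRAMP, from 5, 6 and 6 reads, and at 1.61, 2.23 and 2.58 CPM in KO, from 20, 33 and 48 reads. These libraries did not overlap, nor did those of 60.3% of the miRNAs tested. The pooled levels were 0.687 CPM (exact Poisson 95% interval 0.400 to 1.10) and 2.21 CPM (1.80 to 2.68). The log2 fold change was -0.86 ± 0.28 (SE, limma adjusted p = 0.0172), with a mean 0.339 of that without TRAMP. With a pseudocount of 0.1 CPM it was -1.46, and with edgeR -1.39. It held in 11 of 15 alternatives, and was lost with DESeq2 (adjusted p = 0.0777) and without library 7 (0.0517), 8 (0.0519) or 31 (0.0668). In A537T at 10 weeks the libraries with TRAMP (0.845, 0.865 and 1.58 CPM) overlapped those without (0.444, 1.53 and 2.14 CPM, the middle one from the single read of library 35), and the log2 fold change was -0.12 (limma adjusted p = 0.768).

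At 30 weeks miR-215-5p in WT went the other way, at 1.23, 1.44 and 2.07 CPM with TRAMP (20, 21 and 37 reads) against 0.411, 0.55 and 1.10 CPM without (7, 8 and 15 reads). These libraries did not overlap, as for 46.5% of miRNAs, and the means differed 2.30-fold (log2 fold change 0.62, limma adjusted p = 0.0909). The call was reached with edgeR (1.27, adjusted p = 0.0471) and DESeq2 (1.29, adjusted p = 0.0487). In KO and A537T at 30 weeks the fold changes were -0.18 and -0.22 with overlapping libraries. miR-192-5p in WT at 30 weeks stood at 386, 427 and 465 CPM with TRAMP and at 341, 346 and 359 CPM without, also with no overlap. Its log2 fold change there was 0.28 (95% interval 0.01 to 0.55, limma adjusted p = 0.103). The other TRAMP differences of miR-192-5p lay between -0.15 and 0.11, with overlapping libraries.

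**Figure D3:**
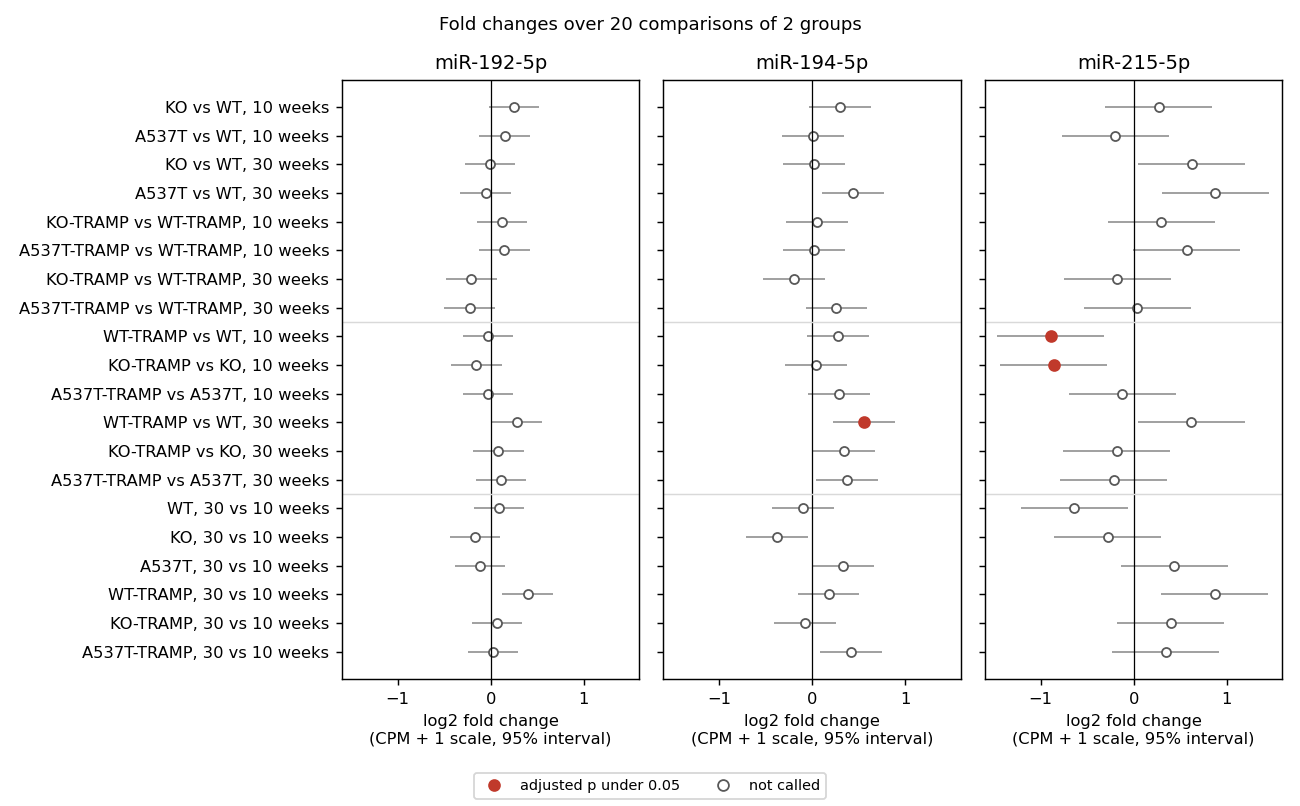
Log2 fold change on the log2(CPM + 1) scale with its 95% interval for the 3 miRNAs in the 20 comparisons of groups. Filled points passed an adjusted p of 0.05 by limma, and these are miR-194-5p in WT-TRAMP against WT at 30 weeks (0.56) and miR-215-5p in WT-TRAMP against WT (-0.89) and KO-TRAMP against KO (-0.86) at 10 weeks.

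The TRAMP difference of miR-215-5p in WT changed with age. The difference at 30 weeks minus that at 10 weeks was 1.51 ± 0.40 (SE, 95% interval 0.70 to 2.33, limma adjusted p = 0.0187), in a comparison in which 9.34% of miRNAs passed. With a pseudocount of 0.1 CPM it was 2.96, and with edgeR 3.33. It held in 20 of 21 alternatives and was lost without library 10 (1.38, adjusted p = 0.0604). The same quantity was 0.68 in KO (limma adjusted p = 0.187) and -0.09 in A537T (0.967). Whether this quantity differed between the lines was not tested. For miR-192-5p it was 0.31 in WT (limma adjusted p = 0.290), and it passed in 1 of 22 alternatives, with totals without skeletal muscle miRNAs (adjusted p = 0.0397). For miR-194-5p it was 0.27 in WT (limma adjusted p = 0.463). In the same comparison 3 of 5 skeletal muscle miRNAs were called up (median 3.62) and 3 of 7 epithelial miRNAs down (median -1.06). With totals without skeletal muscle miRNAs the value of miR-215-5p was 1.71 (limma adjusted p = 0.00651). The part of muscle tissue and of the epithelial miRNAs in this change was not tested. Of 21 tests of interactions (3 miRNAs, 7 comparisons) 1 passed by limma, that of miR-215-5p in WT. At 30 weeks the line difference of miR-215-5p with TRAMP minus that without was -0.84 in A537T (limma adjusted p = 0.818). In KO it was -0.80 (0.217). At 10 weeks it was 0.77 in A537T and 0.03 in KO (limma adjusted p = 0.577 and 0.984).

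The tissue in the libraries differed as well. Skeletal muscle miRNAs (a list of 6, among them miR-1a-3p and miR-133a-3p) took 9.71% to 30.6% of reads in WT at 10 weeks and 0.320% to 0.627% in WT-TRAMP at 10 weeks, and 5 of the 5 tested were called lower with TRAMP. In KO at 10 weeks they took 0.734% to 6.49% and in KO-TRAMP 0.237% to 3.09%, with 2 of 5 called lower. With totals that left these miRNAs out, miR-215-5p was -1.09 in WT (limma adjusted p = 0.00357) and -0.88 in KO (0.0157) at 10 weeks. Both differences were at least as large on those totals. Only the totals change in this way, and the part of muscle tissue in the differences was not tested. The smooth muscle and stroma list (4 miRNAs) took 30.3% to 35.9% in KO and 7.50% to 16.98% in KO-TRAMP at 10 weeks, with 4 of 4 called lower, and its part in the miR-215-5p difference was not tested. Epithelial miRNAs (7, the miR-200 family, miR-203-3p and miR-205-5p) were present in every library, at 3.91% to 10.05% of reads, and took 4.35% to 6.70% in WT and 7.998% to 9.34% in WT-TRAMP at 10 weeks, with 5 of 7 called higher, and in KO at 10 weeks 3 were called higher and 1 lower. Of the white blood cell list (4 miRNAs) 2 were called higher in WT at 10 weeks, and 1 higher and 1 lower in KO. The neuroendocrine list (4) had 1 called higher in WT and 1 lower in KO at that age. Beside the miR-194-5p difference at 30 weeks, miRNAs of white blood cells (4) took 0.021% to 0.032% in WT and 0.083% to 0.108% in WT-TRAMP, with 2 of 4 called higher, and of the epithelial list 1 was called higher and 2 lower. The part of these lists in the differences was not tested. Of the muscle list miR-208b-3p had no read in the WT-TRAMP libraries, nor in WT at 30 weeks, and every marker of the other lists had reads in these groups. In bulk tissue fewer cells of a type and less RNA per cell cannot be told apart.

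By limma on all libraries and by edgeR, no difference between an ELAC2 line and its control passed in any of the 3 miRNAs. Of 24 tests (3 miRNAs, KO and A537T, with and without TRAMP, 2 ages) 0 passed by limma, with 3 at an unadjusted p under 0.05, and 0 passed with edgeR. DESeq2 called 2, namely miR-194-5p in A537T against WT at 30 weeks (adjusted p = 0.0354) and miR-215-5p in KO against WT at 30 weeks (adjusted p = 0.0492). Few miRNAs of any kind passed here: 3.89% in KO and 0.195% in A537T against WT at 10 weeks, 0.584% and 0% at 30 weeks, 0% in KO-TRAMP and 0% in A537T-TRAMP against WT-TRAMP at 10 weeks, and 6.23% and 0% at 30 weeks. In the 4 comparisons with no call by limma, 26 to 43 miRNAs had an unadjusted p under 0.05, edgeR called 0 to 7 and DESeq2 0 to 21. The KO and A537T comparisons of an age share their WT libraries.

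The line differences with the smallest unadjusted p were at 30 weeks without TRAMP, in miR-215-5p and miR-194-5p. miR-215-5p stood at 0.866, 2.29 and 3.63 CPM in A537T (12, 50 and 53 reads) against 0.411, 0.55 and 1.10 CPM in WT, where the lowest A537T library, library 26, lay inside the WT range. The log2 fold change was 0.88 (95% interval 0.30 to 1.45, limma adjusted p = 0.192), and without library 26 it was 1.23 (adjusted p = 0.0160). In KO it stood at 1.30, 1.53 and 1.89 CPM, above all WT libraries, in a comparison where 17.5% of miRNAs did not overlap (0.63, 0.05 to 1.20, limma adjusted p = 0.221). miR-194-5p in A537T at 30 weeks (158, 191 and 226 CPM) was above all WT libraries of that age, where 11.48% of miRNAs did not overlap, with a log2 fold change of 0.44 (0.11 to 0.77, limma adjusted p = 0.292).

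miR-192-5p differed least between lines, with log2 fold changes between -0.23 and 0.25 over the 8 comparisons. At 10 weeks KO libraries (377, 388 and 406 CPM) all lay above WT libraries (302, 336 and 347 CPM), in a comparison where 26.5% of miRNAs did not overlap. The difference was 0.25 (95% interval -0.02 to 0.52, limma adjusted p = 0.257), 0.06 with TMM scaling, -0.0026 with DESeq2 and -0.04 with totals without skeletal muscle miRNAs. At 30 weeks the difference was -0.01 in KO and -0.05 in A537T.

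Between 10 and 30 weeks none of the 3 passed by limma in any of 6 groups (18 tests, 6 at an unadjusted p under 0.05). The share of miRNAs that passed was 9.53% in WT, 14.8% in KO, 15.2% in A537T, 7.59% in WT-TRAMP, 22.2% in KO-TRAMP and 5.45% in A537T-TRAMP. edgeR called 1 of the 18, miR-215-5p in WT-TRAMP (adjusted p = 0.0313), and DESeq2 called the same one (0.0310) and miR-194-5p in A537T (0.0191). The nearest by limma were in WT-TRAMP. miR-215-5p there went from 0.220, 0.381 and 0.608 CPM at 10 weeks to 1.23, 1.44 and 2.07 CPM at 30 weeks, with no overlap, as for 42.996% of miRNAs (log2 fold change 0.87, limma adjusted p = 0.0546). With edgeR this was 1.89 (adjusted p = 0.0313). miR-192-5p went from 296, 319 and 353 CPM to 386, 427 and 465 CPM, also with no overlap (0.40, limma adjusted p = 0.0605), and passed when only miRNAs with a mean of at least 10 CPM were tested (adjusted p = 0.0488). WT without TRAMP was lower in miR-215-5p at 30 than at 10 weeks, with no overlap, as for 27.04% of miRNAs (-0.64, limma adjusted p = 0.148).

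The ratio of miR-215-5p to miR-192-5p within a library compares the 2 clusters through the pair of miRNAs that share a seed. Among 9 libraries a block, the median ratio was 0.00227 (0.00069 to 0.00450) with TRAMP at 10 weeks and 0.00415 (0.00145 to 0.00709) without. At 30 weeks it was 0.00403 (0.00283 to 0.00537) with TRAMP and 0.00383 (0.00114 to 0.0110) without. All blocks overlapped. The log2 ratio was tested with 1 CPM added to each level, which is close to the level of miR-215-5p itself, so the tested value depends on that amount and on the scaling of the library. It was lower with TRAMP at 10 weeks by a mean difference of -0.55, in 3 of 3 lines (exact permutation test within lines, two-sided, p = 0.00475, adjusted over 12 tests 0.0410), and by -1.06 with 0.1 CPM added (adjusted p = 0.0330). The mean log2 ratio with and without TRAMP was -7.86 and -6.99 in WT and -7.68 and -6.97 in KO. In A537T it was -7.43 and -7.34, with overlapping libraries. It did not differ past the threshold at 30 weeks (-0.08, exact permutation adjusted p = 0.9), and with 0.1 CPM added the sign turned (0.05). With TRAMP it was higher at 30 than at 10 weeks, by 0.38 in 3 of 3 lines (exact permutation p = 0.0103, adjusted 0.0410) and by 0.88 with 0.1 CPM added, and without TRAMP the difference was -0.10 (adjusted p = 0.9). Against WT the log2 ratio was higher by 0.21 in KO, in 4 of 4 combinations of background and age. In A537T it was higher by 0.32, in 3 of 4. Neither passed the threshold (exact permutation adjusted p = 0.195 for each).

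The ratio of miR-194-5p to miR-192-5p was higher with TRAMP at both ages. Its median over 9 libraries was 0.546 (0.462 to 0.670) with TRAMP and 0.449 (0.359 to 0.541) without at 10 weeks, and 0.531 (0.428 to 0.816) with and 0.422 (0.367 to 0.732) without at 30 weeks. The blocks overlapped in part. The log2 ratio differed by 0.27 in 3 of 3 lines at 10 weeks (exact permutation p = 0.00825, adjusted 0.0410) and by 0.27 in 3 of 3 lines at 30 weeks (exact permutation p = 0.0145, adjusted 0.0435). It did not differ past the threshold with age (0.02 without and 0.01 with TRAMP) or between KO and WT (0.00) or A537T and WT (0.18, exact permutation adjusted p = 0.219). Each of the 4 calls on ratios was lost when certain single libraries were left out, in 5 and 8 of 18 for miR-215-5p (TRAMP at 10 weeks, and age with TRAMP) and in 5 and 12 of 18 for miR-194-5p at 10 and 30 weeks.

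**Figure D4:**
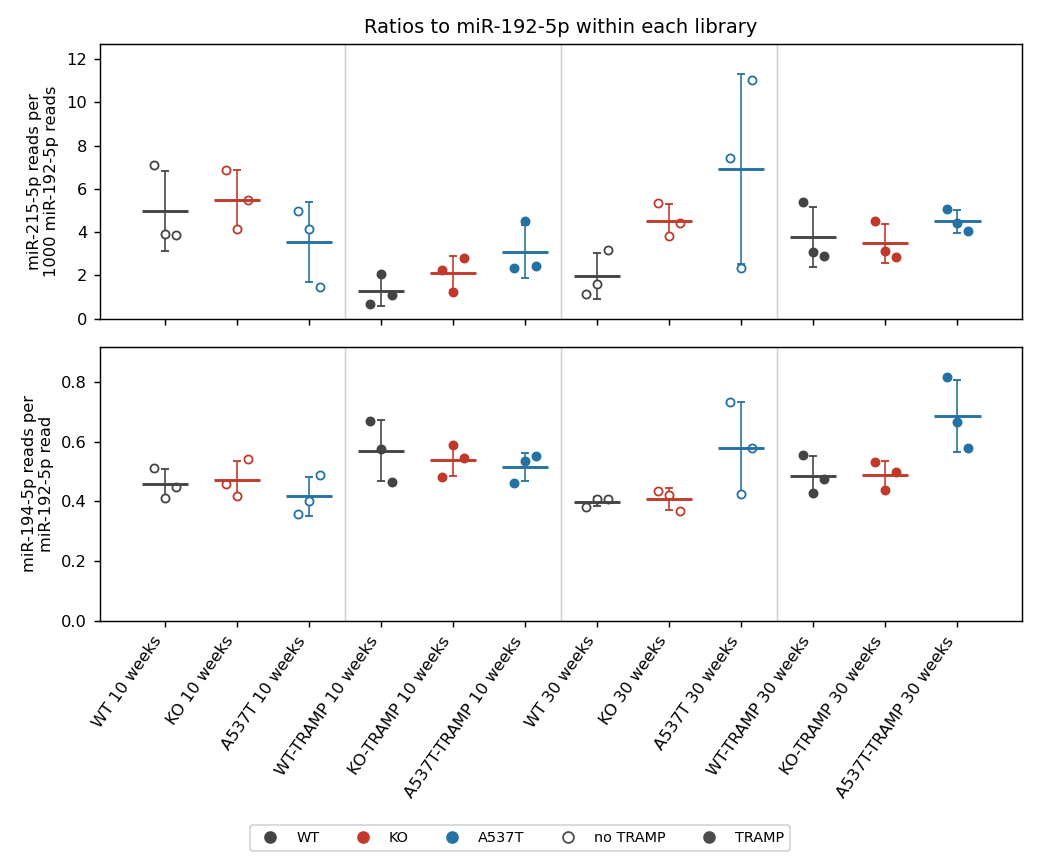
Reads of miR-215-5p per 1000 reads of miR-192-5p (top) and of miR-194-5p per read of miR-192-5p (bottom) in the 12 groups, with a point for each library, a bar for the mean and a whisker for the SD of 3. In the top panel the mean is lowest in WT-TRAMP at 10 weeks (1.27 per 1000) and highest in A537T at 30 weeks (6.92 per 1000), where the 3 libraries lie farthest apart.

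The 3p arm of the chromosome 19 copy, miR-194-2-3p, stood at 1.64 CPM on average and passed in 0 of 27 comparisons by limma. Its smallest adjusted p was 0.112, for KO at 30 against 10 weeks (log2 fold change 0.61), while miR-194-5p in the same comparison was -0.38 (limma adjusted p = 0.106). In WT at 30 weeks, where miR-194-5p was called higher with TRAMP, this arm was lower (-0.43, limma adjusted p = 0.229). It stood at 1.93 to 2.93 CPM in WT and 1.04 to 1.71 CPM in WT-TRAMP, with no overlap, as for 46.5% of miRNAs. Its TRAMP difference at 30 weeks was -0.51 in KO and 0.01 in A537T. At 10 weeks it was 0.19 in WT, 0.17 in KO and 0.52 in A537T. The other 3p arms were below the mean of 1 CPM needed for a test.

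Other miRNAs known as p53 targets were taken from a list of 10. It held members called in both directions in 2 of the 4 comparisons where one of the 3 miRNAs was called. Its median log2 fold change was 0.96 in WT at 30 weeks, -0.36 in WT at 10 weeks and -0.84 in KO at 10 weeks, beside the medians over all miRNAs given above. In WT-TRAMP against WT at 30 weeks 5 rose and 1 fell: miR-34c-5p by 1.74, miR-34c-3p by 1.22, miR-16-5p by 1.20, miR-34b-3p by 1.15 and miR-34b-5p by 1.08 (log2), against -1.94 for miR-34a-5p. At 10 weeks in WT 3 rose, miR-16-5p by 1.05, miR-15a-5p by 0.93 and miR-107-3p by 0.62, and miR-34a-5p was again lower (-2.24). With totals without skeletal muscle miRNAs miR-16-5p alone of these 3 passed, and miR-34c-3p passed as lower there and with TMM scaling. In KO at 10 weeks 0 rose and 5 fell, namely miR-34a-5p (-3.94), miR-145a-5p (-2.18), miR-143-3p (-1.47), miR-34c-5p (-1.20) and miR-34b-3p (-0.84). With TMM scaling miR-16-5p passed as higher there (0.62). miR-143-3p and miR-145a-5p are also on the smooth muscle and stroma list.

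miR-34a-5p, the classical p53-responsive miRNA, was at 188 to 347 CPM in WT and 60.1 to 76.1 CPM in WT-TRAMP at 30 weeks, and at 402 to 475 CPM in KO and 16.1 to 40.3 CPM in KO-TRAMP at 10 weeks. It fell where miR-194-5p rose in WT at 30 weeks. At 10 weeks it fell in WT (-2.24) and in KO (-3.94), where miR-215-5p was lower as well. A shared response to p53 was not tested. In the change of the TRAMP difference with age in WT, where miR-215-5p was at 1.51, 3 of the 10 rose and 0 fell, namely miR-34c-5p (2.11), miR-34c-3p (1.94) and miR-34b-3p (1.51). None of the 10 passed by limma in any of the 8 line comparisons.

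**Figure D5:**
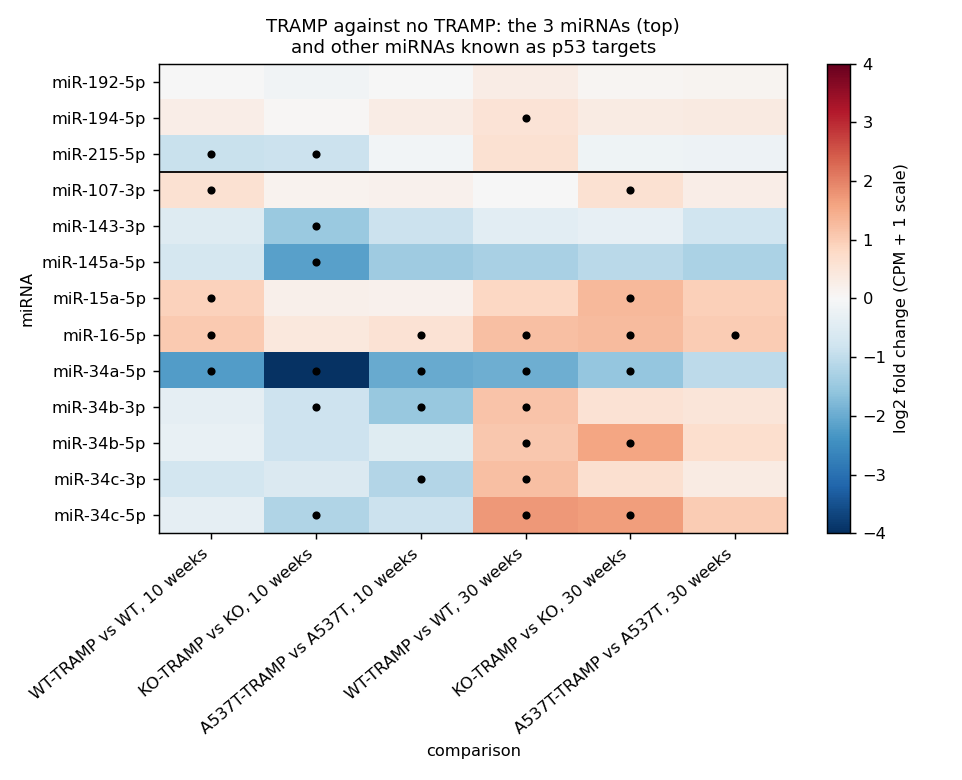
Log2 fold change (colour, red higher and blue lower with TRAMP) of the 3 miRNAs and the 10 listed p53 target miRNAs (rows) in the 6 comparisons of TRAMP with no TRAMP (columns), with a dot where limma's adjusted p was under 0.05. miR-34a-5p is blue in every column and darkest in KO at 10 weeks (-3.94), and the top rows of the 3 miRNAs are pale beside it.

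Among 296 other miRNAs with a mean of at least 10 CPM, those whose log2(CPM + 1) followed miR-194-5p most closely over the 36 libraries were miR-872-3p (Pearson r = 0.829), miR-19b-3p (0.822), miR-374b-5p (0.778), miR-16-5p (0.766) and miR-195a-5p (0.765). The median over the 296 was 0.0401. For miR-215-5p they were miR-10a-5p (0.741), miR-30c-5p (0.663), miR-30a-5p (0.654), miR-10a-3p (0.653) and miR-30a-3p (0.639), with a median of 0.00630. For miR-192-5p they were miR-3535 (0.587), miR-148b-5p (0.582), miR-425-5p (0.526), miR-34c-5p (0.525) and miR-135b-5p (0.503), with a median of 0.0936. The libraries share groups and totals, so these values are a description. Between themselves the 3 stood lower than these named miRNAs, at r = 0.243 for miR-192-5p and miR-194-5p, 0.242 for miR-192-5p and miR-215-5p, and 0.225 for miR-194-5p and miR-215-5p. Both values with miR-192-5p were above those of 81.8% of the 296 with it. The last was above those of 65.9% of the 296 with miR-194-5p.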

How the data were processed

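Ventral and lateral prostate RNA from 36 libraries was sequenced as small RNA. The deposited values are signal values: the authors joined read pairs with BBMerge, mapped and counted with mirDeep2 on GRCm38 and miRBase, summed miRNAs of identical sequence, and divided reads by DESeq2 size factors within each of 8 tables of 6 libraries. With the size factors divided out, 100% of the 44158 values above 0 came out as whole reads (tolerance 0.01). The 12 control columns present in 2 tables gave identical reads in both. Groups came from the table names and shared columns, where "Mut" was read as A537T. The tables of the authors' own comparisons (fold changes and p-values) were not used. Here values were divided by library totals (CPM), and log2(CPM + 1) was fitted over all 36 libraries with limma 3.58.1 with a variance trend (R 4.3.3), for the 514 miRNAs with a mean of at least 1 CPM, Benjamini-Hochberg adjusted within each of 27 comparisons (8 of lines, 6 of TRAMP, 6 of age, 7 interactions), threshold 0.05, two-sided. Ratios used exact permutation within strata (SciPy 1.17.1), adjusted over 12 tests. Alternatives were edgeR 4.0.16 and DESeq2 1.42.0 on recovered reads, other pseudocounts (0.1 and 10), filters and scalings, only the groups compared, and each library left out. Tested on simulated data of 514 miRNAs with 200 changed 4-fold, limma recovered 89% (WT-TRAMP against WT, 10 weeks) and 87% (30 weeks). The 20 most abundant miRNAs were left unchanged there, and limma called 1.59% and 0.955% of the unchanged miRNAs. Smaller changes, such as those of miR-192-5p and miR-194-5p, were not simulated, so these rates do not apply to them. The rates are averages over miRNAs of many levels. None was computed for a level as low as that of miR-215-5p, so they give no rate for it either. Named miRNAs are the 3 members, the other arms of their precursors, the 5 most correlated with each among those of at least 10 CPM, and those of the p53 list called where a member was called. Members and lists were chosen with earlier results of these data known.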

Additional observations from a re-analysis of the deposited data

Results flagged for a closer look

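The TRAMP difference of miR-215-5p in WT prostate differed between the 2 ages by a direct test of the difference. The mean went from 1.64 CPM without to 0.403 CPM with TRAMP at 10 weeks, and from 0.687 to 1.58 CPM at 30 weeks, so the log2 fold change at 30 weeks exceeded that at 10 weeks by 1.51 (limma adjusted p = 0.0187). The libraries with and without TRAMP did not overlap at either age, nor did those of 42.2% of the miRNAs tested at 10 weeks and 46.5% at 30 weeks. The reads behind it were few, 10 over the 3 WT-TRAMP libraries of 10 weeks and 30 over the 3 WT libraries of 30 weeks.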

How the results depend on the processing

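Counted over pairs of a comparison and another setting, the number of the 3 miRNAs called moved in 13 and stayed in 235. Over pairs of a comparison and a library left out, it moved in 7 and stayed in 197. A number that stayed can hide a change of miRNA. In KO-TRAMP against KO at 10 weeks DESeq2 lost miR-215-5p (adjusted p = 0.0777) and called miR-194-5p (0.0449). Its call of miR-194-5p in A537T against WT at 30 weeks (0.0354) was not counted, as miR-215-5p had no adjusted p there. DESeq2 gave 1 call in KO against WT at 30 weeks, 1 in A537T-TRAMP against A537T at 10 weeks, 2 in WT-TRAMP against WT at 30 weeks, and 1 each at 30 against 10 weeks in A537T and WT-TRAMP. edgeR gave 1 in A537T-TRAMP against A537T at 10 weeks, 2 in WT-TRAMP against WT at 30 weeks and 1 in WT-TRAMP at 30 against 10 weeks. TMM scaling gave 1 in A537T-TRAMP against A537T at 10 weeks. In WT-TRAMP at 30 against 10 weeks there was 1 call without the variance trend, with only the groups compared, and with a pseudocount of 0.1. Totals without skeletal muscle miRNAs gave 2 for the change of the TRAMP difference with age in WT. Leaving out 1 library gave 0 to 1 calls in A537T against WT at 30 weeks (library 26), WT-TRAMP against WT (libraries 1 and 28) and KO-TRAMP against KO (libraries 7, 8 and 31) at 10 weeks, and in that change with age (library 10).

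Scaling turned the sign of some values, none of them called by limma. Over the 20 comparisons of groups, TMM turned that of miR-192-5p in 9 (0.17 or less in size), miR-194-5p in 1 and miR-215-5p in 1, and totals without skeletal muscle miRNAs turned it in 3, 2 and 0. DESeq2 turned miR-194-5p in KO at 30 against 10 weeks (0.055, from -0.38), and the ratio of miR-215-5p to miR-192-5p with TRAMP at 30 weeks turned at a pseudocount of 0.1 (0.048, from -0.08). The cause was not tested. With 1 library left out, the log2 ratio of miR-215-5p to miR-192-5p ran from -0.62 to -0.50 for TRAMP at 10 weeks, -0.23 to 0.022 for TRAMP at 30 weeks, -0.20 to 0.048 for age without TRAMP and 0.31 to 0.43 for age with TRAMP. For KO and A537T against WT it ran from 0.18 to 0.27 and from 0.24 to 0.43. The log2 ratio of miR-194-5p to miR-192-5p ran from 0.23 to 0.32 and 0.20 to 0.33 for TRAMP at 10 and 30 weeks, -0.045 to 0.086 and -0.035 to 0.053 for age without and with TRAMP, and -0.032 to 0.034 for KO against WT. For A537T against WT it ran from 0.13 to 0.23. A mean of at least 10 CPM left miR-215-5p out, so it gave no number for the 3, and it added a call of miR-192-5p in WT-TRAMP at 30 against 10 weeks (adjusted p = 0.0488). No paired analysis was possible because the columns carry no replicate numbers that tie libraries across groups. Depth limits miR-215-5p, with 1 to 53 reads a library, and 3 reads correspond to 0.660 CPM in library 1.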
